A study of Homo sapiens with 15 samples.

Results

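The NRF2 antioxidant genes are 10 of the 60649 genes listed for each library, taken by their gene symbols: NFE2L2, which encodes the transcription factor NRF2, its inhibitor KEAP1, and the target genes GCLC, GCLM, TXNRD1, SRXN1, NQO1, HMOX1, AKR1C1 and AKR1B10. RNA was sequenced from HSC-5 (HSC5 in the labels), a human cell line from a cutaneous squamous cell carcinoma, in 15 libraries, with 3 biological replicates in each of 5 conditions. The cells expressed Cas9, and a lentivirus brought in 1 guide RNA (sgRNA) in each of the 4 knockout conditions. The methods list the control, sgNeg, among the sgRNAs, while captions of the study's protein blots call it an empty vector control, so whether it has a guide is not settled. It carries the genotype label WT, sgPRMT5#1 and sgPRMT5#2 carry PRMT5 Knockout, and sgWDR77#1 and sgWDR77#2 carry WDR77 Knockout. All 5 conditions have the same treatment label, Neomycin. The methods give G418 as the selection for the proliferation (MTT) assays and name none for the RNA-seq cells. The series text speaks of a knockdown where the labels say knockout, and whether each condition was a clone or a pool of edited cells is not stated. PRMT5KO and WDR77KO below are the 6 libraries of both sgRNAs of a gene.

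As background, KEAP1 binds NRF2 and delivers it to a ubiquitin ligase, and oxidants or electrophiles that modify KEAP1 let NRF2 accumulate and, with a small MAF protein, bind antioxidant response elements in the promoters of its targets. BACH1 occupies the same elements as a repressor, with HMOX1 as its best known target. In keratinocytes the pathway is known for protection from ultraviolet light and reactive chemicals, and squamous carcinomas often carry mutations that keep it active. PRMT5 is an enzyme that methylates arginines of other proteins, and WDR77 is its partner in that complex.

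Library depth, as reads assigned to genes, ran from 5146711 to 6730428. Its median was 5806938 for the sgNeg libraries, 5974844 for sgPRMT5#1 and 6124306 for sgPRMT5#2, against 5203698 for sgWDR77#1 and 5527881 for sgWDR77#2. All sgPRMT5#1 and sgPRMT5#2 libraries were deeper than all sgNeg libraries, so levels are given below as CPM, the count per 1e+06 assigned reads, after scaling by the trimmed mean of M values (TMM). Reads that matched no gene were 2.75% to 7.16% of a library's total, with the highest share in sgNeg replicate 2. In sgWDR77#1 they were 3.57%, 6.04% and 5.7%, and over all genes replicate 1 also stood apart from replicates 2 and 3 (chi-square per degree of freedom, 12.5 and 17.7), which were closer to each other (3.21). GCLM, GCLC and TXNRD1 were highest in that replicate among the sgWDR77#1 libraries. Of the sgNeg libraries, replicate 2 stood apart (9.16 and 6.44, against 3.86 between replicates 1 and 3). It held the lowest sgNeg levels of NFE2L2, KEAP1, NQO1, HMOX1, AKR1C1 and AKR1B10 and the highest of TXNRD1. Splits were also seen for sgPRMT5#1 replicate 3 (6.04 and 5.38, against 2.02) and sgWDR77#2 replicate 1 (4.97 and 6.78, against 2.03). The causes of these splits were not tested. All 10 members had a row in every library and a mean scaled count of at least 3, the minimum for a test, in each of the 9 comparisons. The library kit is named differently in the methods (TruSeq RNA Library Prep Kit v2) and in the labels (TruSeq Stranded mRNA), and neither the strand setting of the counting nor the annotation release is given, so genes that share exons with another gene, or sequence with a copy, carry an uncertainty that is stated with their values.

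Squamous keratinocyte markers were read first as a check of the labelled cell type. Each of the 8 had counts in every library, the most abundant by median CPM being KRT17 (809 CPM) and SFN (608 CPM), while KRT14 had only 1 to 4 counts. KRT5 ranged widely, at 512 to 817 CPM in sgNeg and 227 to 335 in sgPRMT5#1, but 52.2 to 61.3 in sgPRMT5#2, 33.8 to 43.4 in sgWDR77#1 and 81.9 to 101 in sgWDR77#2. The summed level of the 8 was 2720 to 3197 CPM for sgNeg, 2689 to 2946 for sgPRMT5#1 and 2316 to 2423 for sgPRMT5#2, and 2352 to 2558 for sgWDR77#1 and 3120 to 3193 for sgWDR77#2. The sum in sgPRMT5#2 and in sgWDR77#1 lay below that in sgNeg in each library, and the part of cell state in the results below was not tested. Of other cell types, the 4 leukocyte markers summed to at most 0.555 CPM, with CD3E at 0 in all 15 libraries. The 5 fibroblast markers summed to 6.68 to 15.9 CPM, nearly all of it COL1A1, with COL1A2 at 0 throughout. The 3 endothelial markers, mostly CDH5, summed to 31.3 to 36.1 CPM in sgWDR77#1, above all 12 other libraries (12.7 to 24.9 CPM), and the part of this shift was not tested either. The 3 melanocyte markers summed to 2.55 to 7.48 CPM, mostly PMEL, with DCT at 0 throughout.

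The targeted genes were read next, by single sgRNA. PRMT5 was at 59.1, 49.6 and 67.8 CPM in the sgNeg libraries, at 33.0, 35.8 and 41.4 in sgPRMT5#1 and at 44.2, 44.5 and 39.4 in sgPRMT5#2. Its log2 fold change against sgNeg was -0.69 with sgPRMT5#1 (adjusted p = 0.00525) and -0.45 with sgPRMT5#2 (adjusted p = 0.00257). Neither sgRNA's libraries overlapped with sgNeg, and the mRNA level does not measure the protein. WDR77 was at 125, 114 and 119 CPM in sgNeg, at 30.8, 52.0 and 53.3 in sgWDR77#1 and at 26.6, 24.9 and 22.0 in sgWDR77#2. The log2 fold change of WDR77 was -1.40 with sgWDR77#1 (adjusted p = 0.00141) and -2.29 with sgWDR77#2 (adjusted p = 1.78e-08), again with no overlap. Of the WDR77 transcript, 27.4% is shared on the same strand with a long noncoding gene that had 0 to 5 counts, and 2.52% with ATP5PB on the other strand (1231 to 2312 counts), while 38.8% of the PRMT5 transcript is overlapped on the opposite strand by PRMT5-AS1, with 0 to 3 counts.

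Per kilobase of transcript, the members spanned a wide range in the sgNeg libraries. TXNRD1 was at 297 ± 5.59 CPM per kb (SD, n = 3) and NQO1 at 294 ± 18.0, a pair that did not differ beyond its spread. NFE2L2 followed at 86.7 ± 10.6 and GCLC at 77.5 ± 2.89, whose libraries overlapped. GCLM at 49.2 ± 3.85, KEAP1 at 24.3 ± 2.43 and AKR1C1 at 9.73 ± 1.03 came next, each apart from its neighbours. HMOX1 at 5.37 ± 2.23 and AKR1B10 at 4.50 ± 1.57 overlapped with each other. SRXN1 is given no place in this order, because its counts cover little of its transcript and do not measure its level. HMOX1 stood above AKR1C1 in sgPRMT5#2 (18.9 ± 2.34 against 3.34 ± 0.273) and in sgPRMT5#1 (8.77 ± 0.361 against 5.56 ± 1.34), with no overlap of libraries in either. The place of AKR1C1 rests on 1 transcript of 6543 bases, and 16.6% of its stretches of read length occur in another AKR1C gene. Without division by length, AKR1C1 was above HMOX1 in sgPRMT5#1 (means 36.4 and 13.6 CPM) and below it in sgPRMT5#2 (21.8 and 29.3). GCLM stood above GCLC only in sgPRMT5#2 (56.3 ± 1.14 against 48.6 ± 3.43).

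**Figure D1:**
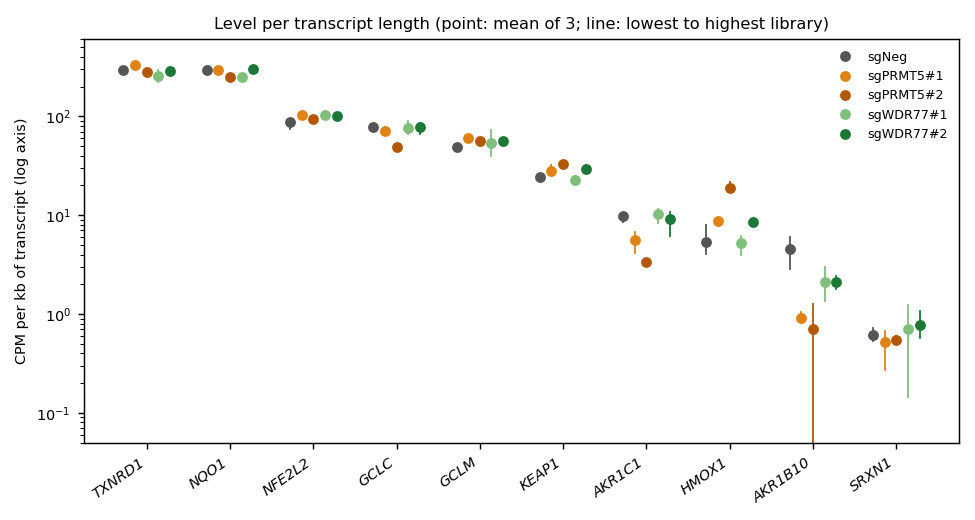
Level per transcript length of the 10 members in 5 conditions, in CPM per kb on a log axis; points are means of 3 libraries and lines run from the lowest to the highest library. TXNRD1 and NQO1 are highest in sgNeg, the points of SRXN1 divide by a transcript of which little is countable and do not rank it, and the line of AKR1B10 in sgPRMT5#2 leaves the axis because 1 library had a count of 0.

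Each comparison asks whether a member's level differed between conditions; a gene is called when its adjusted p from limma voom, fitted on all tested genes, is under 0.05. With sgPRMT5#2 against sgNeg, 3 members were called higher and 4 lower, beside 20.9% of all tested genes higher and 19.3% lower. Under library totals alone GCLM (0.11) was no longer called and TXNRD1 was called lower (-0.18). In that setting 39.5% of 5809 called genes were higher, against 52.0% under TMM. With sgPRMT5#1 against sgNeg, 2 members were called, both lower, beside 1.52% of all genes higher and 2.24% lower. That count was 4 with no filter on low counts, by HMOX1 (log2 fold change 0.77) and GCLM (0.28), and 5 with a replicate block, by HMOX1 (0.71), GCLM (0.28) and NFE2L2 (0.24), all of them higher, so with the block more members were higher than lower. Over all genes, the block called 1529 of 14102, 52.6% of them higher, in place of 530, 40.4% of them higher. No filter called 987 of 25875, 46.4% of them higher. The comparison of sgWDR77#1 with sgNeg called 0 of 10 members by limma voom, 2 at an unadjusted p under 0.05 and 0 by limma-trend, beside 1.04% of all genes higher and 1.67% lower. For sgWDR77#2 against sgNeg the numbers were 0 by limma voom, 4 at an unadjusted p under 0.05 and 0 by limma-trend, beside 1.89% higher and 3.08% lower. These 4 comparisons share the sgNeg libraries. The shares of all genes are at adjusted p throughout, so they do not show how common an unadjusted p under 0.05 is. By limma voom, NFE2L2 with sgWDR77#1 had an unadjusted p of 0.0366 and ranked 2135 of 14202 tested genes. With sgWDR77#2 it had 0.0401 and ranked 2635 of 14038. Libraries that do not overlap between groups, as described for single genes below, are common: they were seen for 24.3% of all tested genes with sgPRMT5#1, 50.4% with sgPRMT5#2, 24.0% with sgWDR77#1 and 25.5% with sgWDR77#2. For PRMT5KO and WDR77KO against sgNeg the shares were 19.2% and 10.6%, and for PRMT5KO against WDR77KO 4.62%. Between the sgRNAs of a gene they were 34.7% for PRMT5 and 20% for WDR77. Without sgWDR77#1 replicate 1, TXNRD1 was called lower in sgWDR77#1 (log2 fold change -0.33), so that count became 1. All genes called rose from 385 to 1003 in that run. In sgWDR77#2, AKR1B10 was called lower without sgNeg replicate 2 (-1.32) and HMOX1 higher without sgNeg replicate 3 (1.02), a count of 1 in each case. All genes called fell there from 698 to 430 and 450.

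The pooled fits below have no term for the sgRNA and take the 6 libraries of a gene as 1 group, although 3 of them share each sgRNA; the alternative with all 15 libraries in 1 fit keeps the sgRNAs apart and averages them. Pooling both sgRNAs of a gene, PRMT5KO against sgNeg called 2 members higher and 2 lower, beside 8.73% of all genes higher and 8.3% lower. The call count for PRMT5KO fell to 1 without sgNeg replicate 1 and to 2 without sgNeg replicate 2, sgNeg replicate 3, sgPRMT5#2 replicate 1 or sgPRMT5#2 replicate 2. All genes called fell as well, from 2397 to 483, 673, 1297, 1313 and 1320 in these runs. WDR77KO against sgNeg called 0 members by limma voom, 2 at an unadjusted p under 0.05 and 0 by limma-trend, beside 0.838% higher and 2.55% lower. AKR1B10 became a call there without sgNeg replicate 2 (log2 fold change -1.35), and also under median-of-ratios scaling (-1.05) and under library totals alone (-1.07). PRMT5KO against WDR77KO, a comparison without sgNeg, called 1 member higher and 2 lower, beside 7.99% higher and 6.01% lower. This fell to 1 call without sgPRMT5#2 replicate 2 or sgWDR77#1 replicate 2, where all genes called fell from 1962 to 905 and 969. Between the sgRNAs of a gene, sgPRMT5#2 against sgPRMT5#1 called 1 member higher and 4 lower, beside 9.94% higher and 9.31% lower. The same contrast for WDR77, sgWDR77#2 against sgWDR77#1, called 0 members by limma voom, 3 at an unadjusted p under 0.05 and 0 by limma-trend, beside 0.0999% higher and 0.0214% lower. These shares too are at adjusted p. In that contrast NQO1, at an unadjusted p of 0.031 by limma voom, ranked 1199 of 14011 genes. For WDR77KO against sgNeg, NFE2L2 at 0.027 ranked 1651 of 14073. In 8 of the 9 comparisons the number of all genes called moved by more than 1.5 times when a library was left out, so each background share is itself approximate.

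**Figure D2:**
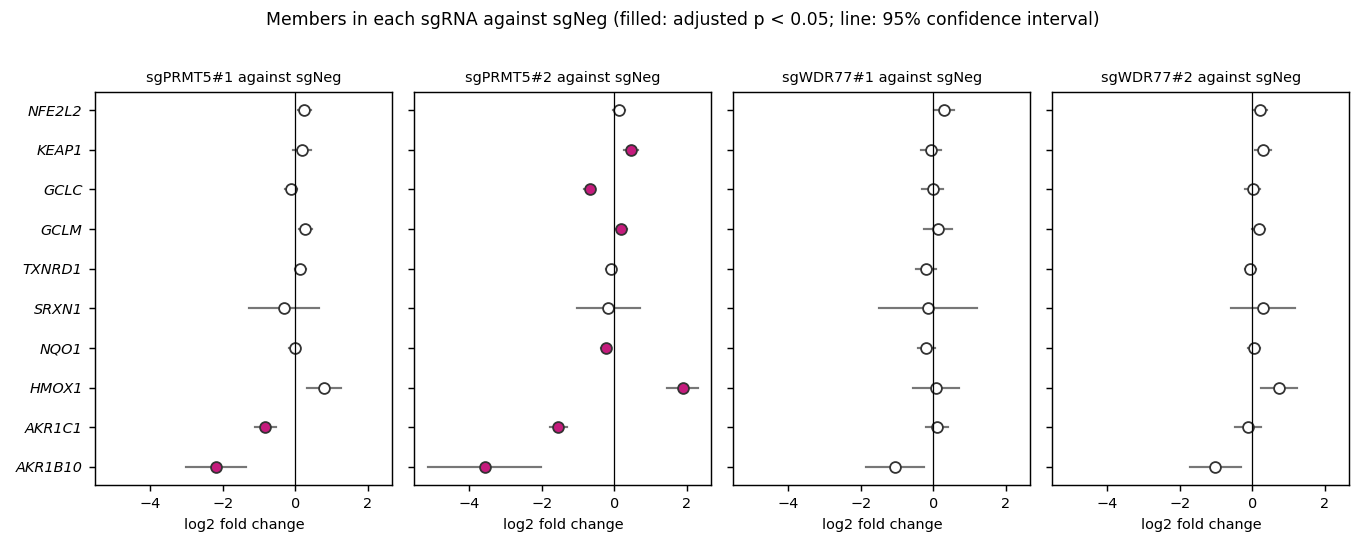
Log2 fold change of each member in the 4 comparisons of an sgRNA with sgNeg; points are estimates, lines are 95% confidence intervals, and filled points have an adjusted p under 0.05. The filled points are in the sgPRMT5#1 panel (AKR1C1 and AKR1B10) and the sgPRMT5#2 panel (7 members).

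NFE2L2 (ENSG00000116044.16, chromosome 2, 177218667 to 177392756, minus strand, GRCh38) was at 232, 183 and 222 CPM in sgNeg, at 248, 260 and 252 in sgPRMT5#1 and at 240, 227 and 228 in sgPRMT5#2. In the WDR77 libraries it was at 280, 233 and 248 with sgWDR77#1 and at 242, 243 and 249 with sgWDR77#2. All sgPRMT5#1, sgWDR77#1 and sgWDR77#2 libraries lay above all sgNeg libraries, and sgPRMT5#2 overlapped with sgNeg. NFE2L2 was called in none of the 9 comparisons by limma voom as fitted here, and with a replicate block it was called in sgPRMT5#1 (0.24). Its log2 fold changes against sgNeg were 0.25 with sgPRMT5#1 (adjusted p = 0.139), 0.13 with sgPRMT5#2 (0.214), 0.29 with sgWDR77#1 (0.243) and 0.21 with sgWDR77#2 (0.214). The mRNA of NRF2 does not measure its protein, which KEAP1 controls. An antisense gene with 0 to 1 counts overlaps 7.77% of its transcript.

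KEAP1 (ENSG00000079999.14, chromosome 19, 10486125 to 10503558, minus strand), the adaptor that marks NRF2 for breakdown, was at 65.2, 55.1 and 66.4 CPM in sgNeg, at 67.5, 65.0 and 82.9 in sgPRMT5#1 and at 86.0, 77.7 and 90.4 in sgPRMT5#2. It was at 53.6, 57.4 and 64.0 with sgWDR77#1 and at 82.0, 72.4 and 73.3 with sgWDR77#2. All sgPRMT5#2 and sgWDR77#2 libraries lay above all sgNeg libraries, whereas sgPRMT5#1 and sgWDR77#1 overlapped with sgNeg. KEAP1 was called higher in sgPRMT5#2 (log2 fold change 0.44, adjusted p = 0.00075), in all 13 alternative settings too. With sgWDR77#2 the value was 0.28 (adjusted p = 0.137), not called. The pooled PRMT5KO value of 0.31 (adjusted p = 0.0761) was not called, but became a call without sgPRMT5#1 replicate 1 (0.36) or replicate 2 (0.35) and with all 15 libraries in 1 fit (0.33). That joint fit also called KEAP1 higher in PRMT5KO than in WDR77KO (0.23). Between the PRMT5 sgRNAs, KEAP1 differed by 0.25 (adjusted p = 0.0718), and the difference was called without sgPRMT5#1 replicate 3 (0.36) and with a replicate block (0.25). For sgWDR77#2 against sgWDR77#1 the value was 0.37 with no overlap of libraries, not called (adjusted p = 0.301).

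GCLC (ENSG00000001084.13, chromosome 6, 53497341 to 53616970, minus strand) encodes the catalytic subunit of the enzyme that starts glutathione synthesis. It was at 286, 288 and 306 CPM in sgNeg, at 293, 273 and 249 in sgPRMT5#1 and at 190, 169 and 192 in sgPRMT5#2. With sgWDR77#1 it was at 343, 267 and 249, and with sgWDR77#2 at 253, 313 and 328. The sgPRMT5#2 libraries were the lowest 3 of the 15 and overlapped with no other condition. GCLC was called lower in sgPRMT5#2 against sgNeg (log2 fold change -0.68, adjusted p = 2.85e-07) and against sgPRMT5#1 (-0.56, adjusted p = 1.34e-05), each also in all 13 alternative settings. In sgPRMT5#1 the value against sgNeg was -0.13 (adjusted p = 0.42). The pooled values, -0.41 for PRMT5KO against sgNeg (adjusted p = 0.0655) and -0.38 for PRMT5KO against WDR77KO (adjusted p = 0.0568), were not called. Each became a call without sgPRMT5#1 replicate 1 (-0.48 and -0.47) or replicate 2 (-0.47 and -0.45), and the latter also without sgWDR77#2 replicate 1 (-0.43). Each was called too under library totals alone (-0.47 and -0.44), with no filter on low counts (-0.40 and -0.38) and with all 15 libraries in 1 fit (-0.39 and -0.38), and the latter under median-of-ratios scaling (-0.40). An antisense gene, with 0 to 8 counts, overlaps 6.66% of the GCLC transcript.

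GCLM (ENSG00000023909.10, chromosome 1, 93885199 to 93909456, minus strand) encodes the modifier subunit of the same enzyme. Its levels were 222, 240 and 259 CPM in sgNeg, 314, 302 and 266 in sgPRMT5#1 and 281, 271 and 273 in sgPRMT5#2. They were 357, 245 and 193 in sgWDR77#1, the widest spread of any group, and 266, 265 and 286 in sgWDR77#2. All sgPRMT5#1, sgPRMT5#2 and sgWDR77#2 libraries lay above all sgNeg libraries. GCLM was called higher in sgPRMT5#2 (log2 fold change 0.19, adjusted p = 0.0342), opposite in direction to GCLC in the same libraries. That call was lost without sgNeg replicate 1 (0.14), sgPRMT5#2 replicate 1 (0.21) or sgPRMT5#2 replicate 2 (0.22), under library totals alone (0.11) and with all 15 libraries in 1 fit (0.20). In PRMT5KO it was called higher as well (0.23, adjusted p = 0.0463), and leaving out any 1 of the 9 libraries, which gave 0.16 to 0.26, ended that call, as did median-of-ratios scaling (0.22), library totals alone (0.17), a replicate block (0.23) and all 15 libraries in 1 fit (0.24). In sgPRMT5#1 alone the value was 0.28 (adjusted p = 0.0855), a call without sgPRMT5#1 replicate 3 (0.33), with no filter on low counts (0.28) and with a replicate block (0.28). Between the PRMT5 sgRNAs GCLM differed by -0.09 (adjusted p = 0.37), and by -0.16, a call, without sgPRMT5#1 replicate 3.

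TXNRD1 (ENSG00000198431.16, chromosome 12, 104215779 to 104350307, plus strand) encodes thioredoxin reductase, which returns oxidised thioredoxin to its working form with NADPH. It was at 1127, 1170 and 1146 CPM in sgNeg, at 1376, 1256 and 1186 in sgPRMT5#1 and at 1124, 1084 and 1019 in sgPRMT5#2. With sgWDR77#1 it was at 1140, 956 and 858, and with sgWDR77#2 at 1040, 1131 and 1153. The sgPRMT5#1 libraries lay above all sgNeg libraries and the sgPRMT5#2 libraries below them. Neither shift was called (log2 fold change 0.13, adjusted p = 0.31, and -0.10, adjusted p = 0.172), although the latter was called under library totals alone (-0.18) and with no filter on low counts (-0.10). The difference between the PRMT5 sgRNAs was called (-0.24, adjusted p = 0.00284), and was lost only with all 15 libraries in 1 fit (-0.24) among the 13 alternatives.

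SRXN1 (ENSG00000271303.2, chromosome 20, 646615 to 653200, minus strand) encodes sulfiredoxin, which repairs overoxidised peroxiredoxins. Its counts were 8, 9 and 10 in sgNeg, 10, 4 and 10 in sgPRMT5#1 and 8, 8 and 9 in sgPRMT5#2. In the WDR77 libraries they were 2, 10 and 17 with sgWDR77#1 and 14, 10 and 8 with sgWDR77#2. A read-through gene on the same strand, with 0 to 1 counts, shares 90.7% of the SRXN1 transcript, and 90.5% of its stretches of 76 bases, the read length, occur in that gene as well. Reads from the shared stretch cannot be assigned to SRXN1 by gene-level counting, so the counts describe little more than the remaining 9.54% of stretches and give no measure of the level of SRXN1. Its log2 fold changes against sgNeg ran from -0.32 to 0.28 with standard errors from 0.416 to 0.619, and a difference within these errors was not detectable at this depth.

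NQO1 (ENSG00000181019.13, chromosome 16, 69706996 to 69726668, minus strand) encodes a quinone reductase that is widely used as a readout of NRF2. It was at 768, 690 and 769 CPM in sgNeg, at 743, 716 and 746 in sgPRMT5#1 and at 630, 623 and 639 in sgPRMT5#2. It was at 613, 655 and 628 with sgWDR77#1 and at 718, 790 and 782 with sgWDR77#2. The sgPRMT5#2 and sgWDR77#1 libraries lay below all sgNeg libraries, and the other groups overlapped with sgNeg. NQO1 was called lower in sgPRMT5#2 against sgNeg (log2 fold change -0.24, adjusted p = 0.00437), in all 13 alternative settings too. Against sgPRMT5#1 it was lower by a similar amount (-0.22, adjusted p = 0.00368), a call lost only with all 15 libraries in 1 fit (-0.22). With sgWDR77#1 the value was -0.20 (adjusted p = 0.354) and with sgWDR77#2 0.03 (adjusted p = 0.846), neither called. The difference between the WDR77 sgRNAs, 0.26 with no overlap of libraries, was not called either (adjusted p = 0.362). An antisense gene with 0 counts in all 15 libraries overlaps 22.8% of the NQO1 transcript.

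HMOX1 (ENSG00000100292.18, chromosome 22, 35380361 to 35394214, plus strand) encodes haem oxygenase, which breaks haem down to biliverdin, iron and carbon monoxide. Its counts were low in sgNeg, at 38, 38 and 68, which is 6.43, 6.25 and 12.3 CPM. In sgPRMT5#1 it was at 13.4, 14.3 and 13.2 CPM and in sgPRMT5#2 at 27.05, 27.4 and 33.5, the latter from 161 to 198 counts. In sgWDR77#1 it was at 6.10, 8.88 and 9.67 CPM and in sgWDR77#2 at 14.1, 12.9 and 12.4. The sgPRMT5#2 libraries stood above all 12 others, and sgPRMT5#1 and sgWDR77#2 lay just above the highest sgNeg library, while sgWDR77#1 overlapped with sgNeg. HMOX1 rose in sgPRMT5#2 against sgNeg (log2 fold change 1.88, 95% confidence interval 1.46 to 2.30, adjusted p = 5.45e-07) and against sgPRMT5#1 (1.10, adjusted p = 1.21e-05), each in all 13 alternative settings as well. With sgPRMT5#1 against sgNeg the value was 0.77 (adjusted p = 0.0613) and with sgWDR77#2 0.73 (adjusted p = 0.0882), neither called, and each was called without sgNeg replicate 3 (1.05 and 1.02). The value in sgPRMT5#1 was also called with no filter on low counts (0.77) and with a replicate block (0.71).

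Pooled, HMOX1 was higher in PRMT5KO than in sgNeg (log2 fold change 1.32, adjusted p = 0.0335). It is a mean over sgRNAs that differed from each other, with 0.77 (not called) for sgPRMT5#1 and 1.88 for sgPRMT5#2. The call was lost without sgNeg replicate 1 (1.16), replicate 2 (1.15) or replicate 3 (1.60). It was also lost without sgPRMT5#2 replicate 1 (1.23) or replicate 2 (1.22). In the runs without an sgNeg replicate the calls over all genes fell too, from 2397 to 483, 673 and 1297. A replicate block ended the call of HMOX1 as well (1.28). HMOX1 was also higher in PRMT5KO than in WDR77KO (0.95, adjusted p = 0.0258), with overlap between sgPRMT5#1 and sgWDR77#2. The call was lost without any 1 of the 3 sgPRMT5#2 libraries (0.83, 0.84 and 0.78) or of the 3 sgWDR77#1 libraries (0.79, 0.88 and 0.92). The WDR77 sgRNAs did not overlap with each other. HMOX1 was higher in sgWDR77#2 than in sgWDR77#1 by 0.68, not called (adjusted p = 0.277), so this pooled value too is a mean over sgRNAs that stood apart.

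AKR1C1 (ENSG00000187134.14, chromosome 10, 4963253 to 4983283, plus strand) encodes an aldo-keto reductase that reduces steroids and reactive carbonyls. It was at 69.4, 56.2 and 65.3 CPM in sgNeg, at 44.5, 37.7 and 27.1 in sgPRMT5#1 and at 20.1, 23.6 and 21.8 in sgPRMT5#2. In the WDR77 libraries it was at 54.9, 75.5 and 70.8 with sgWDR77#1 and at 40.6, 70.5 and 68.4 with sgWDR77#2. All 6 PRMT5KO libraries lay below all sgNeg libraries and the PRMT5 sgRNAs did not overlap with each other, while both WDR77 sgRNAs overlapped with sgNeg. AKR1C1 fell in sgPRMT5#1 (log2 fold change -0.83, adjusted p = 0.00232), in sgPRMT5#2 (-1.55, adjusted p = 4.6e-09) and in PRMT5KO (-1.19, adjusted p = 0.00293). It was lower in PRMT5KO than in WDR77KO (-1.15, adjusted p = 0.00114), where sgWDR77#2 replicate 1 overlapped with sgPRMT5#1, and lower in sgPRMT5#2 than in sgPRMT5#1 (-0.72, adjusted p = 0.00237). Each of these 5 calls was kept under every alternative setting. Against sgNeg the values with sgWDR77#1 (0.10, adjusted p = 0.764) and sgWDR77#2 (-0.13, adjusted p = 0.725) were not called. The coding sequences of AKR1C1 and AKR1C2 are 98% identical, and 16.6% of the 76-base stretches of the AKR1C1 transcript (35.1% of those in its coding part) occur in another AKR1C gene, so part of its reads cannot be placed.

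AKR1B10 (ENSG00000198074.10, chromosome 7, 134527567 to 134541412, plus strand) encodes a related reductase that acts on retinal and lipid aldehydes. Its counts were 57, 28 and 42 in sgNeg, 11, 8 and 8 in sgPRMT5#1 and 0, 8 and 12 in sgPRMT5#2, and 17, 26 and 12 with sgWDR77#1 and 15, 22 and 19 with sgWDR77#2. In CPM these are 9.65, 4.60 and 7.62 in sgNeg, 1.68, 1.36 and 1.37 in sgPRMT5#1 and 0, 1.36 and 2.03 in sgPRMT5#2. The count of 0 in sgPRMT5#2 replicate 1 allows up to 0.466 CPM (3 counts), a limit for counting error only. With sgWDR77#1 it was at 3.14, 4.81 and 2.19 CPM and with sgWDR77#2 at 2.89, 3.89 and 3.42. The PRMT5KO libraries lay below all sgNeg libraries, and of the WDR77KO libraries only sgWDR77#1 replicate 2 reached into the sgNeg range. AKR1B10 fell in sgPRMT5#1 (log2 fold change -2.20, 95% confidence interval -3.02 to -1.37, adjusted p = 0.00363) and in sgPRMT5#2 (-3.58, adjusted p = 0.00076), each in all 13 alternative settings too. The size in sgPRMT5#2 rests on the library at 0: without sgPRMT5#2 replicate 1 it was -1.98, and it was -4.19 without replicate 2 and -4.46 without replicate 3. It fell in PRMT5KO (-2.90, adjusted p = 0.01), a call lost without sgNeg replicate 1 (-2.67). That value too rests on the library at 0, being -2.12, still called, without sgPRMT5#2 replicate 1.

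Against WDR77KO, AKR1B10 was lower in PRMT5KO by a log2 fold change of -1.82 (adjusted p = 0.0328), with no overlap of libraries. The value was -1.08, still called, without sgPRMT5#2 replicate 1. It was no longer called without sgPRMT5#2 replicate 2 (-1.96), sgWDR77#1 replicate 2 (-1.74), sgWDR77#2 replicate 2 (-1.79) or sgWDR77#2 replicate 3 (-1.84), nor with a replicate block (-1.59). Against sgNeg, AKR1B10 was not called with sgWDR77#1 (-1.06, adjusted p = 0.152) or with sgWDR77#2 (-1.02, adjusted p = 0.0868), although no sgWDR77#2 library overlapped with sgNeg. WDR77KO itself stood lower than sgNeg by a log2 fold change of -1.05, just short of the threshold (adjusted p = 0.0515). Stretches of 76 bases shared with AKR1B15 and AKR1B10P1 make up 6.99% of the AKR1B10 transcript.

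**Figure D3:**
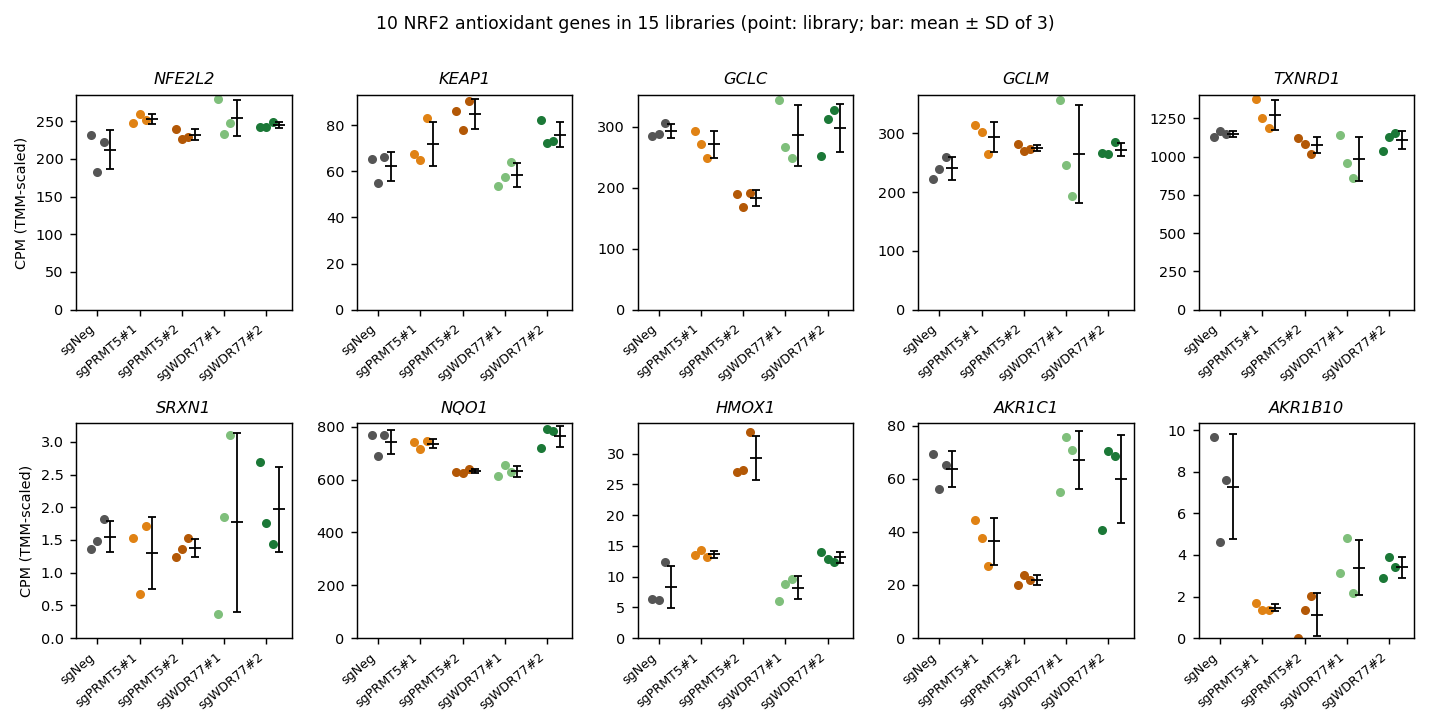
TMM-scaled CPM of the 10 members in each of the 15 libraries, on axes from 0; points are libraries and bars are the mean and SD of 3. HMOX1 is highest in the 3 sgPRMT5#2 libraries (27.05 to 33.5 CPM), the means of AKR1C1 and AKR1B10 are lowest in the PRMT5 sgRNAs, and NFE2L2 stays between 183 and 280 CPM.

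In sgPRMT5#2 the members therefore did not move in 1 direction: HMOX1, KEAP1 and GCLM were called higher, and GCLC, NQO1, AKR1C1 and AKR1B10 lower. The GCLM call was lost in several alternative settings, among them library totals alone (0.11) and all 15 libraries in 1 fit (0.20). The median log2 fold change of the 10 members in sgPRMT5#2 was -0.13, beside 0.00 over all tested genes, with a range from -3.58 to 1.88. In the other comparisons with sgNeg the members' median was 0.05 for sgPRMT5#1, -0.04 for sgWDR77#1 and 0.11 for sgWDR77#2, beside 0.00, 0.02 and 0.01 over all tested genes. Across the 15 libraries, the log2 CPM of HMOX1 and KEAP1 ran in parallel (Pearson r = 0.848), as did those of GCLC and AKR1C1 (r = 0.806) and of AKR1C1 and AKR1B10 (r = 0.778). HMOX1 ran opposite to AKR1C1 (r = -0.80) and GCLC (r = -0.787). NFE2L2 and NQO1 had r = -0.0487. These coefficients describe 15 libraries that share 5 conditions and are given with no test, and in bulk RNA fewer cells of a kind and less RNA per cell cannot be told apart.

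A further set of 66 genes of the pathway, none of them a member, was read in the same fits in 8 lists by role. With it were read 14 antioxidant enzymes outside it. In sgPRMT5#2 15 of the 62 tested pathway genes were called higher and 28 lower, with a median log2 fold change of -0.11, beside 20.9% and 19.3% of all genes. Under library totals alone these counts were 9 and 30, where 5809 of 14204 genes were called, 39.5% of them higher (52.0% under TMM). In sgPRMT5#1 1 gene was called higher and 5 lower of 62, beside 1.52% and 2.24% of all genes. In sgWDR77#1 2 of 62 were called, both lower, beside 1.67% of all genes lower, and in sgWDR77#2 3 were called higher and 4 lower of 62, beside 1.89% and 3.08%. In sgWDR77#2 library totals alone gave 2 and 6, where 730 of 14042 genes were called, 31.6% of them higher (38.1% under TMM). Pooled against sgNeg, PRMT5KO had 8 higher and 14 lower, beside 8.73% and 8.3% of all genes, and library totals alone gave 5 and 20. That setting called 2298 of 14085 genes, 34.0% of them higher, against 51.3% under TMM. WDR77KO had 1 higher and 3 lower, beside 0.838% and 2.55%. PRMT5KO against WDR77KO had 4 higher and 11 lower of 61, beside 7.99% and 6.01%, with 2 and 12 under median-of-ratios scaling and 1 and 12 under library totals alone. Of all genes, median-of-ratios scaling called 1928 of 14021, 49.2% of them higher, against 57.1% under TMM. Library totals alone called 1901 of 14030, 37.7% of them higher. For sgPRMT5#2 against sgPRMT5#1 there were 5 higher and 21 lower of 61, beside 9.94% and 9.31%.

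The lists by role are given for sgPRMT5#2, whereas all 6 calls with sgPRMT5#1 lay in carbonyl and quinone reduction (1 higher and 4 lower) and in export and conjugation (1 lower). The last of these, ABCC3 (log2 fold change -0.92, adjusted p = 0.0147), lost its call in 5 of 13 alternative settings. Of the partners and regulators of NRF2, 9 of 16 were called higher and 1 lower in sgPRMT5#2 (median log2 fold change 0.26), beside 20.9% and 19.3% of all genes. Under library totals alone 5 were higher and 1 lower (median 0.17), so the count depends on scaling. In that setting 5809 of 14204 genes were called, 39.5% of them higher, against 52.0% under TMM. SQSTM1, whose protein p62 captures KEAP1 for autophagy, was at 191, 166 and 211 CPM in sgNeg and at 328, 321 and 326 in sgPRMT5#2 (log2 fold change 0.78, adjusted p = 1.79e-07). The small MAF genes MAFG (0.67, adjusted p = 3.85e-07) and MAFF (0.59, adjusted p = 2.83e-05) were also higher there, with no overlap of libraries. SQSTM1 was higher in sgWDR77#2 too (0.46, adjusted p = 0.0256), a call lost without sgNeg replicate 1 or replicate 2. BACH1 was called in none of the 9 comparisons by limma voom, with log2 fold changes against sgNeg of -0.07 and -0.05 with the PRMT5 sgRNAs and 0.18 and 0.00 with the WDR77 sgRNAs. Its levels of 58.8 to 62.1 CPM in sgNeg and 54.6 to 60.4 in sgPRMT5#2 overlapped. The mRNA of BACH1 does not measure its protein, and its part in the level of HMOX1 was not tested.

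In the NADPH supply list, named for the reductant that TXNRD1 and NQO1 use, 5 of 6 genes were called lower in sgPRMT5#2 (median -0.34). Beside them, 19.3% of all genes were lower. Among the 5 were IDH1 (log2 fold change -1.02, adjusted p = 2.87e-09) and TALDO1 (-0.63, adjusted p = 1.97e-06). Both had all sgPRMT5#2 libraries below all sgNeg libraries. In the glutathione list 2 of 8 were called higher and 4 lower in sgPRMT5#2, beside 20.9% and 19.3% of all genes. Under library totals alone they were 1 and 4, where 5809 of 14204 genes were called, 39.5% of them higher. GSTP1, a transferase that joins glutathione to electrophiles, was lower (-0.51, adjusted p = 4.06e-06), as was GSR, which regenerates glutathione (-0.41, adjusted p = 0.000113). CHAC1, which degrades glutathione, was higher (1.35, adjusted p = 0.000348).

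The counts of the next lists stand beside the same shares of all genes, 20.9% higher and 19.3% lower in sgPRMT5#2. Their counts under library totals alone stand beside 5809 called of 14204 genes, 39.5% of them higher. The thioredoxin and peroxiredoxin list had 1 of 5 higher, SESN2 (log2 fold change 1.35, adjusted p = 0.000183), and 1 lower, TXNIP (-0.63, adjusted p = 8.75e-05), in sgPRMT5#2, and 2 lower under library totals alone. In the haem and iron list 4 of 5 were lower there, while the member HMOX1, which is not on this list, was called higher (1.88). Among the 4 were BLVRB (-0.74, adjusted p = 1.53e-05), which encodes a flavin reductase, and the ferritin gene FTL (-0.28, adjusted p = 0.00579). BLVRA, whose product reduces the biliverdin that haem oxygenase makes, was another (-0.69, adjusted p = 0.000134). Export and conjugation had 2 of 6 higher and 3 lower, with the transporters ABCC3 at -2.07 (adjusted p = 9.5e-08) and ABCC4 at 0.73 (adjusted p = 0.00173), and 1 higher and 3 lower under library totals alone. Other targets had 3 of 5 lower, with CYP4F11 at -0.81 (adjusted p = 1.52e-05). Outside the pathway lists, 5 of 13 antioxidant enzymes were lower, and 8 under library totals alone, with CAT at -1.003 (adjusted p = 8.67e-09), GPX4 at -0.56 (adjusted p = 9.83e-05) and GPX1 at -0.47 (adjusted p = 0.000651).

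**Figure D4:**
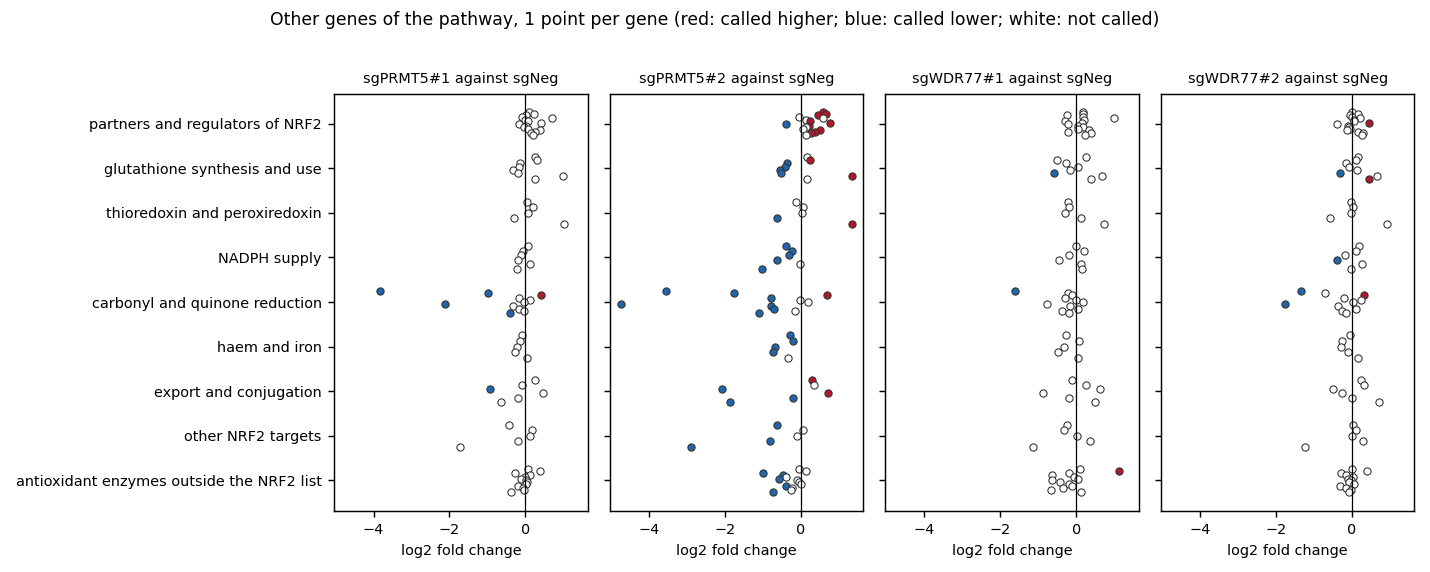
Log2 fold change against sgNeg of the tested genes of 8 pathway lists and of the antioxidant enzymes outside them, 1 point per gene; red and blue points were called higher and lower. In sgPRMT5#2 15 pathway genes are red and 28 blue, and the points farthest to the left are in the list of carbonyl and quinone reduction.

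In each comparison of an sgRNA with sgNeg, carbonyl and quinone reduction held the lowest log2 fold change of the lists. In sgPRMT5#2 1 of 11 genes was called higher and 7 lower (median -0.78), in sgPRMT5#1 1 higher and 4 lower, in sgWDR77#1 1 lower, and in sgWDR77#2 1 higher and 2 lower. All genes called lower were 19.3%, 2.24%, 1.67% and 3.08% in these comparisons. ALDH3A1, which oxidises aldehydes, was at 68.2, 38.6 and 46.8 CPM in sgNeg, at 15.1, 11.5 and 8.56 in sgPRMT5#1 and at 1.40, 2.55 and 1.69 in sgPRMT5#2. With sgWDR77#1 it was at 24.0, 28.7 and 33.6 and with sgWDR77#2 at 10.6, 15.9 and 18.2, so that all 12 knockout libraries lay below all sgNeg libraries. It was called lower in sgPRMT5#1 (log2 fold change -2.11, adjusted p = 2.92e-05), sgPRMT5#2 (-4.73, adjusted p = 8.3e-08) and sgWDR77#2 (-1.77, adjusted p = 0.000385), in every alternative setting. With sgWDR77#1 the value of -0.77 was not called (adjusted p = 0.0669). In PRMT5KO ALDH3A1 was lower than in WDR77KO (-2.13, adjusted p = 0.00795), with overlap between sgPRMT5#1 and sgWDR77#2.

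AKR1C2, the near copy of AKR1C1, was at 24.2, 13.0 and 17.4 CPM in sgNeg, at 1.38, 1.36 and 0.856 in sgPRMT5#1 and at 0.622, 1.53 and 3.21 in sgPRMT5#2. It was at 5.17, 6.66 and 4.93 with sgWDR77#1 and at 5.01, 6.36 and 10.3 with sgWDR77#2. All 12 knockout libraries lay below all sgNeg libraries, and all PRMT5KO libraries below all WDR77KO libraries, unlike AKR1C1, whose WDR77 libraries overlapped with sgNeg. AKR1C2 was called lower in sgPRMT5#1 (log2 fold change -3.83, adjusted p = 5.7e-05), sgPRMT5#2 (-3.55, adjusted p = 5.64e-06), sgWDR77#1 (-1.62, adjusted p = 0.0107) and sgWDR77#2 (-1.34, adjusted p = 0.0127). The last 2 calls were lost without sgNeg replicate 3 and without sgWDR77#2 replicate 2, respectively. It was also lower in PRMT5KO than in WDR77KO (-2.18, adjusted p = 0.000631). AKR1C3 was called lower in sgPRMT5#1 (-0.98, adjusted p = 0.0101, lost without sgNeg replicate 1 and with all 15 libraries in 1 fit) and in sgPRMT5#2 (-1.75, adjusted p = 6.38e-06), and in neither WDR77 sgRNA (-0.21, adjusted p = 0.665, and -0.71, adjusted p = 0.268). In sgWDR77#2 the AKR1C3 estimate ran from -1.03 without its replicate 3 to -0.08 without its replicate 1. Of their 76-base stretches, 35.6% in AKR1C2 and 12.1% in AKR1C3 occur in another AKR1C gene, and reads that fall there are not unique to either.

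**Figure D5:**
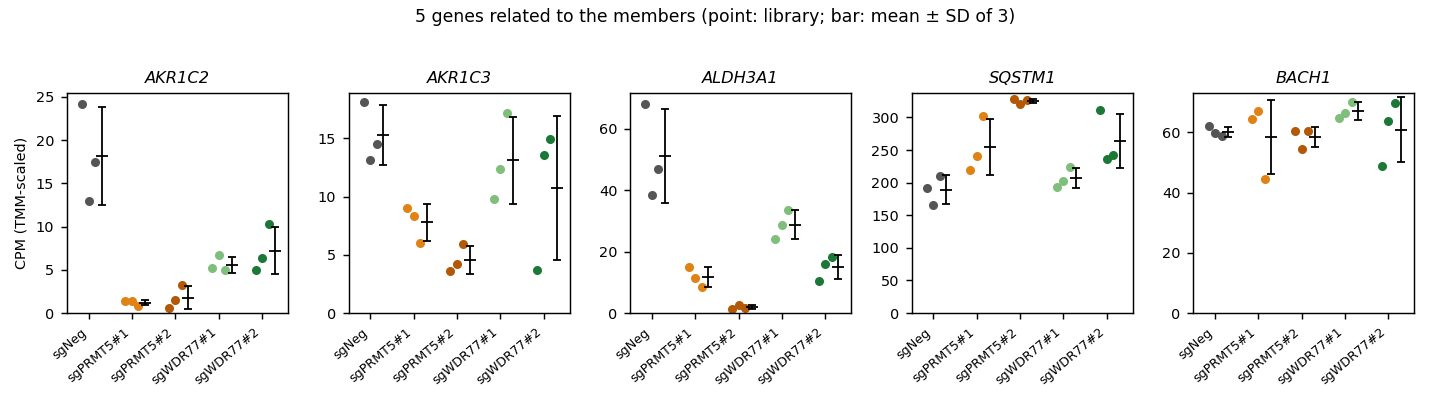
TMM-scaled CPM of AKR1C2, AKR1C3, ALDH3A1, SQSTM1 and BACH1 in each of the 15 libraries, on axes from 0; points are libraries and bars are the mean and SD of 3. AKR1C2 and ALDH3A1 are below sgNeg in all 12 knockout libraries, and BACH1 in sgPRMT5#2 (54.6 to 60.4 CPM) overlaps with sgNeg.

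AKR1B1, a reductase close to AKR1B10, was called higher in sgWDR77#2 (log2 fold change 0.34, adjusted p = 0.0468), opposite in direction to AKR1C2 and ALDH3A1 there. That call was lost in 7 of 13 alternative settings: without sgNeg replicates 1 or 2 or sgWDR77#2 replicates 1 or 2, under library totals alone, with a replicate block and with all 15 libraries in 1 fit. TALDO1 was lower (log2 fold change -0.38, adjusted p = 0.0192), GSTP1 lower (-0.32, adjusted p = 0.0237) and MGST1 higher (0.46, adjusted p = 0.0108) in sgWDR77#2. With sgWDR77#1, GSTP1 was lower (-0.59, adjusted p = 0.0451) and SOD2, outside the NRF2 lists, was higher (1.14, adjusted p = 0.0128). Each of these last 5 calls was lost when at least 2 of the libraries were left out singly. For TALDO1 they were sgNeg replicates 1 and 3 and sgWDR77#2 replicates 2 and 3, and for MGST1 sgNeg replicate 2 and sgWDR77#2 replicate 2. For SOD2 they were sgNeg replicates 2 and 3. GSTP1 was lost in sgWDR77#1 without any sgNeg replicate or sgWDR77#1 replicate 2, and in sgWDR77#2 without sgNeg replicates 1 or 3 or sgWDR77#2 replicates 2 or 3. Other settings that ended GSTP1's call were limma-trend in both, library totals alone in sgWDR77#1, and a replicate block or all 15 libraries in 1 fit in sgWDR77#2, and a replicate block also ended that of TALDO1.

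The promoters of the members, from 250 bases before to 50 after the start of transcription in the RefSeq promoter table (build GRCh38.p14), were searched for the core of the antioxidant response element, TGACNNNGC, and its reverse complement GCNNNGTCA. The table holds 8 of the 10 members with 11 promoters, and HMOX1 and AKR1B10 are not in it. The core occurs in 4 of the 11, beside 13.3% of all 35116 promoters: in 1 of 2 for KEAP1, in the 1 of GCLM and in both of TXNRD1. By gene, 3 of the 8 members hold it, beside 16.1% of 27305 genes. The stretches with the core are shown, and capitals mark it on either strand. In sgPRMT5#2 against sgNeg, KEAP1 and GCLM were called higher, the latter not in every setting. TXNRD1 was not called, but was called lower under library totals alone (-0.18) and with no filter on low counts (-0.10). A link between the core and these values was not tested. Where the match lies in the transcript, only the bases next to it are given.
GCLM promoter, chr1:93909456-93909680, minus strand: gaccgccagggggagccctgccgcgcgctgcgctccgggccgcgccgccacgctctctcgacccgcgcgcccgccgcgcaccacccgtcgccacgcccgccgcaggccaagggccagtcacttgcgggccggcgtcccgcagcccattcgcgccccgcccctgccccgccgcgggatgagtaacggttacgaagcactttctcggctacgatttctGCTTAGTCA
TXNRD1 promoter 1, chr12:104215529-104215779, plus strand: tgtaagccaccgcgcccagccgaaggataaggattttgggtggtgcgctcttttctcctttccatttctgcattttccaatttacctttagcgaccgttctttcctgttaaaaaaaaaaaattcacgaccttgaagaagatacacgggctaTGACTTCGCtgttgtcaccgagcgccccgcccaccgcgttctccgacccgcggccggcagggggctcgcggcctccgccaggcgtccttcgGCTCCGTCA
TXNRD1 promoter 2, chr12:104286920-104286948, plus strand: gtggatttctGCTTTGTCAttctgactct
KEAP1 promoter 2, chr19:10502807-10502835, minus strand: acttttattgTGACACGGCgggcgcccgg
KEAP1 promoter 2, chr19:10502784-10502812, minus strand: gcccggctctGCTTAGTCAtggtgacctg
The promoters of NFE2L2, NQO1, GCLC, SRXN1 and AKR1C1 lack these letters in this window, which says nothing of elements elsewhere, and a match describes letters and not binding.

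Genes whose pattern was most like that of HMOX1 and NQO1 were found over the 15 libraries by Pearson's r of log2 CPM among 9214 genes with a mean scaled count of at least 50. For HMOX1 they were ATP6V1B2 (r = 0.947), POLR3A (0.946), PDLIM7 (0.939), FST (0.939) and KANSL2 (0.938). For NQO1 they were EBPL (0.901), COQ3 (0.897), FTL (0.896), GPC1 (0.890) and ARHGEF39 (0.887). The ferritin gene FTL, also on the haem and iron list, is thus the only listed pathway gene among these 10. The coefficients are a description with no test.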

How the data were processed

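RNA-seq counts of 15 HSC-5 libraries were used. The deposited values are the authors' whole-number counts per gene from STAR and htseq-count on hg38, not normalized, per the labels. The 5 summary entries of htseq-count entered neither depth nor tests; they include no feature (2.75% to 7.16% of a library's total), ambiguous (7.09% to 7.93%) and not unique (9.49% to 13.1%). Replicate pairs differed beyond sampling noise (chi-square per degree of freedom 1.55 to 17.7), so no library repeats another. The members and lists were chosen with earlier results of these data known.

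Counts were scaled by TMM (0.3 of log ratios and 0.05 of mean levels trimmed). Genes with a mean scaled count of at least 3 in the libraries of a comparison were tested with limma voom (limma 3.58.1, R 4.3.3), two-sided, only those libraries entering the fit, with Benjamini-Hochberg adjustment over all tested genes. edgeR and DESeq2 were not used, because the step that verifies count units cannot parse tables separated by tabs under a name for commas. The code was tested on simulated data.

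Alternatives were median-of-ratios scaling (RLE), library totals alone, no filter, a minimum mean count of 10, a replicate block, all 15 libraries in 1 fit, limma-trend on log2 CPM (prior count 2), and each library left out. They were applied to genes other than the members after the data were seen.

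Besides all members, AKR1C2, AKR1C3 and BACH1, at most the 3 genes with the smallest adjusted p among those called in a list and comparison were named, and the 5 most like HMOX1 and NQO1. PRMT5, WDR77 and the markers served as checks. Positions, transcript lengths and shared 76-base stretches came from GENCODE on GRCh38, in which 60463 of 60649 listed genes, all members included, were found by identifier. Intervals and limits cover counting or replicate error only.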

Additional observations from a re-analysis of the deposited data

Results flagged for a closer look

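For each member, the 6 PRMT5KO and the 6 WDR77KO libraries were searched for a library far from the rest of its group, which makes 20 groups. For 6 libraries drawn from 1 population, chance alone gives about 1 in 20. That rate need not hold here, because each group pools 2 sgRNAs, which differed from each other for several members. NFE2L2 was at 280 CPM in sgWDR77#1 replicate 1, above the other 5 WDR77KO libraries by 0.661 of the whole range. AKR1B10 was at 0 CPM in sgPRMT5#2 replicate 1, below the other 5 PRMT5KO libraries by 0.669 of the range, from a count of 0.

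Other results stand here because 2 groups differed by the test of their difference. Between the PRMT5 sgRNAs, sgPRMT5#2 had more HMOX1 than sgPRMT5#1 (log2 fold change 1.10) and less NQO1 (-0.22), GCLC (-0.56), TXNRD1 (-0.24) and AKR1C1 (-0.72), of which the NQO1 and TXNRD1 calls were lost with all 15 libraries in 1 fit. PRMT5KO had more HMOX1 than WDR77KO (0.95) and less AKR1C1 (-1.15) and AKR1B10 (-1.82). The HMOX1 call there was lost without any 1 of the 3 sgPRMT5#2 or the 3 sgWDR77#1 libraries, and the AKR1B10 call in 5 of 19 alternative settings, while its value was -1.08 without sgPRMT5#2 replicate 1. The AKR1C1 call held in all 19. The causes were not tested.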

How the results depend on the processing

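No member's called value changed sign. Over all members, comparisons and alternatives, 1167 values kept their direction and side of the threshold, 34 passed it only under the alternative, 38 no longer passed it, and 42 that were never past it changed sign. For the related genes, whose alternatives were added after seeing the data, 1746 values kept both, 196 lost the call, 7 gained it and 17 changed sign uncalled; 66 of 110 calls held throughout.

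Counts of calls depended on the setting by more than 1.5 times as follows. With no filter on low counts, sgPRMT5#1 against sgNeg had 4 members and 987 genes called in place of 2 and 530, and sgWDR77#2 against sgWDR77#1 had 127 genes in place of 17. With a replicate block, sgPRMT5#1 against sgNeg had 5 members and 1529 genes, sgWDR77#2 against sgNeg 380 genes in place of 698, and PRMT5KO against sgNeg 2 members in place of 4. With all 15 libraries in 1 fit, sgWDR77#1 against sgNeg had 1333 genes in place of 385, and WDR77KO against sgNeg 1187 in place of 477. In that fit PRMT5KO against WDR77KO had 5 members and 3813 genes in place of 3 and 1962, sgPRMT5#2 against sgPRMT5#1 had 3 members and 1059 genes in place of 5 and 2690, and sgWDR77#2 against sgWDR77#1 had 339 genes. WDR77KO against sgNeg had 1 member in place of 0 under RLE scaling and 1 under library totals alone, and sgWDR77#2 against sgWDR77#1 had 11 genes under library totals alone. The cause was not tested.

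Leaving out 1 library at a time gave these lowest and highest counts. For sgPRMT5#1 against sgNeg they were 2 to 3 members and 211 to 510 genes, and for sgPRMT5#2 against sgNeg 6 to 7 members and 4675 to 5668 genes. For sgWDR77#1 against sgNeg they were 0 to 1 members and 56 to 1003 genes, and for sgWDR77#2 against sgNeg 0 to 1 and 293 to 661. PRMT5KO against sgNeg gave 1 to 5 members and 483 to 3562 genes, WDR77KO against sgNeg 0 to 1 and 199 to 677, and PRMT5KO against WDR77KO 1 to 4 and 876 to 3178. Between sgRNAs, sgPRMT5#2 against sgPRMT5#1 gave 5 to 7 and 1429 to 4711, and sgWDR77#2 against sgWDR77#1 gave 0 members and 0 to 156 genes. Fewer libraries lower the power of a test, and the rest of the cause was not tested.

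Under library totals alone the share of calls that were higher dropped from 40.4% to 27.8% in sgPRMT5#1 against sgNeg, from 52.0% to 39.5% in sgPRMT5#2 against sgNeg, from 51.3% to 34.0% in PRMT5KO against sgNeg and from 57.1% to 37.7% in PRMT5KO against WDR77KO, so the balance of higher and lower calls depends on scaling.

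Over all conditions the replicate numbers do not pair the libraries: of 30 pairs with the same number 5 had a correlation above 0.1 (from -0.504 to 0.416), and 5 of 15 libraries were closest to their own number. For sgPRMT5#1 with sgNeg, where the block raised the counts most, the correlations were 0.0800, 0.151 and 0.416, so a pairing there was not settled.

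Limits: 3 libraries per condition are few, SRXN1 is barely counted, AKR1B10 and HMOX1 have low counts in several conditions, part of the AKR1C reads cannot be placed, and the mRNA level of NFE2L2 and KEAP1 does not measure NRF2 protein.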
